A study of Mus musculus with 30 samples.

Results

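The genes that make, sense and move cholesterol were followed in the hippocampus and brain of old mice with and without B cells and with and without Alzheimer's disease (AD) transgenes. The 30 members were chosen by symbol and found on the array through the accession of each probe, and all 30 had a probe among the 36717 genes and transcripts measured. They comprise 18 enzymes of cholesterol synthesis, 6 genes of sterol sensing and transcription, and 6 genes of efflux, turnover, uptake, esterification and lysosomal export. Every member was well above background on all 30 arrays, so no member was lost to a filter on low signal.

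RNA of 15 hippocampal and 15 brain samples from perfused mice was measured, each on its own 1-colour (Cy3) Agilent mouse array. The titles number the samples of each tissue alike, and whether a hippocampal and a brain sample of 1 number came from 1 mouse is not given in the sources used here. In each tissue the samples were from 3 WT females (C57BL/6j), 2 JHT females, 5 3xTgAD mice (2 females and 3 males) and 5 mice of the cross, labelled JHT_3xTgAD and called 3xTgAD-BKO here (2 females and 3 males). The labels give all mice the strain C57BL/6j and an age of 15 to 20 months. JHT mice carry a germline deletion of the immunoglobulin heavy-chain J segments and make no functional B cells. 3xTgAD mice carry mutant human APP and MAPT transgenes, which are driven by a neuronal Thy1 cassette in this line, together with a further mutant AD allele. The 3xTgAD-BKO mice carry both the JHT deletion and these AD alleles, the WT mice carry neither, and no male was measured without the transgenes. Values are the log2 intensity of a gene's probe after quantile normalization over the 30 arrays, 1 unit being a doubling, and levels were compared between arrays for the same probe only.

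Brain cholesterol is made almost wholly inside the brain, because lipoproteins of the blood do not cross the blood-brain barrier. Acetyl-CoA is built into mevalonate and squalene, squalene is closed to lanosterol, and lanosterol is trimmed to cholesterol. When membrane sterol is low, SCAP carries SREBP-2, the product of Srebf2, to the Golgi for cleavage, and the released factor raises synthesis genes together. INSIG-1 holds SCAP back when sterol is plentiful. Oxysterols activate the liver X receptors encoded by Nr1h2 and Nr1h3, which raise the exporters ABCA1 and ABCG1. Neurons also turn cholesterol over through CYP46A1, which makes a hydroxylated form that can leave the brain.

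Promoters of the members are shown first, because SREBP-2 acts at a sterol element together with the CCAAT-binding factor NF-Y. In RefSeq windows of 300 bases (250 before and 50 after a start site, build GRCm38.p6), 25 of the 30 members had an entry, 15 of them synthesis enzymes. Both strands were searched for the sterol element core TCACNCCAC and for CCAAT, and these motifs do not overlap each other in the windows printed. CCAAT was found in at least 1 window of 14 of the 15 synthesis enzymes and of 19 of the 25 members. Counted by window it was in 20 of 32 (62.5%), against 37.4% of all 32851 promoters, whereas the core TCACNCCAC was found for 1 member, against 1.24% of all promoters. The windows of 3 members follow, with motifs in capitals: Hmgcs1 is the member with both motifs, and Idi1 and Msmo1 are members that passed the test in a genotype comparison. ATTGG marks CCAAT on the other strand. The Hmgcs1 window is chr13:119690101-119690400 (plus strand), that of Idi1 is chr13:8885356-8885655 (plus strand) and that of Msmo1 is chr8:64733529-64733828 (minus strand).
Hmgcs1: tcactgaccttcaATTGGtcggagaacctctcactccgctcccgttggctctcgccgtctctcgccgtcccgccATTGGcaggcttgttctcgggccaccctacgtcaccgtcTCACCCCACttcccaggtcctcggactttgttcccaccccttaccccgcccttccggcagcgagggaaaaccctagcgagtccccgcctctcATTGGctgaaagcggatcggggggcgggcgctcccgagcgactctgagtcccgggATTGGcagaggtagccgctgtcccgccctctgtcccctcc
Idi1: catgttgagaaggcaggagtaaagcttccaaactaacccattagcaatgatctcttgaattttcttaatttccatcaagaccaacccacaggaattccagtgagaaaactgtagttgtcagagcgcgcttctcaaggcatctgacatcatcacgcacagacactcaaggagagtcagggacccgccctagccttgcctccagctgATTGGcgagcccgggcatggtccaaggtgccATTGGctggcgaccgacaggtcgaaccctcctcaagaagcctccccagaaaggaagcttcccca
Msmo1: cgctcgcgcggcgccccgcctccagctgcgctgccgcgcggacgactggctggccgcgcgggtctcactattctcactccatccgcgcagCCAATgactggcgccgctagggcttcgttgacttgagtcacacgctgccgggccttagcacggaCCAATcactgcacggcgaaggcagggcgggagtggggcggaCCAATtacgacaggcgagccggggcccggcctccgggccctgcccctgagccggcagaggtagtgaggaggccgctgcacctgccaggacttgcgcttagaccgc
In the Hmgcs1 window the core lay 137 bases before the start site. The CCAAT nearest to the start site among those upstream of it lay 45 bases before the start in Hmgcs1, 14 in Idi1 and 55 in Msmo1. These matches describe letters in a window and were not tested as binding sites.

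A few facts of the arrays bear on the values. The 75th percentile of the raw intensities was 454 to 824 on hippocampal and 841 to 1636 on brain arrays. The hippocampal array of 3xTgAD-BKO male replicate 0 had 432 outlier spots, against 102 to 160 on the others, and stood apart for several members. Of 7 hippocampal field markers, 6 were higher in the hippocampus. Choroid plexus markers varied widely among hippocampi, with a log2 summed signal between 10.68 and 18.53, all 8 markers being listed and at least 7 well above background on every array. Arrays lay on 4 slides. In each tissue WT and JHT mice were on 1 slide and 3xTgAD females and 3xTgAD-BKO females together on another, so transgene and slide cannot be told apart in females, and 3xTgAD-BKO males span slides. In bulk tissue, fewer cells of a type and less RNA per cell cannot be told apart. The immunoglobulin segment deleted in JHT mice was not checked here.

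For 13 of the 18 synthesis enzymes the lowest of the 15 hippocampal values was that of a JHT mouse, and the median of the 18 differences between JHT and WT females was -0.47 on the log2 scale. In 3xTgAD-BKO hippocampi the median of their differences from 3xTgAD was 0.23. No single member passed the test between JHT and WT mice. Each value was also taken as its difference from that gene's mean over the 15 arrays of the tissue. On the hippocampal arrays of JHT replicates 13 and 14, 0 of the 18 synthesis enzymes lay above that mean, and their median differences were -0.46 and -0.49. On the 3 WT hippocampi 9, 5 and 12 of the 18 lay above it. On the 5 3xTgAD hippocampi the medians ran from -0.09 to 0.10, and on the 5 3xTgAD-BKO hippocampi from -0.03 to 0.40, replicate 0 being the highest.

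**Figure D1:**
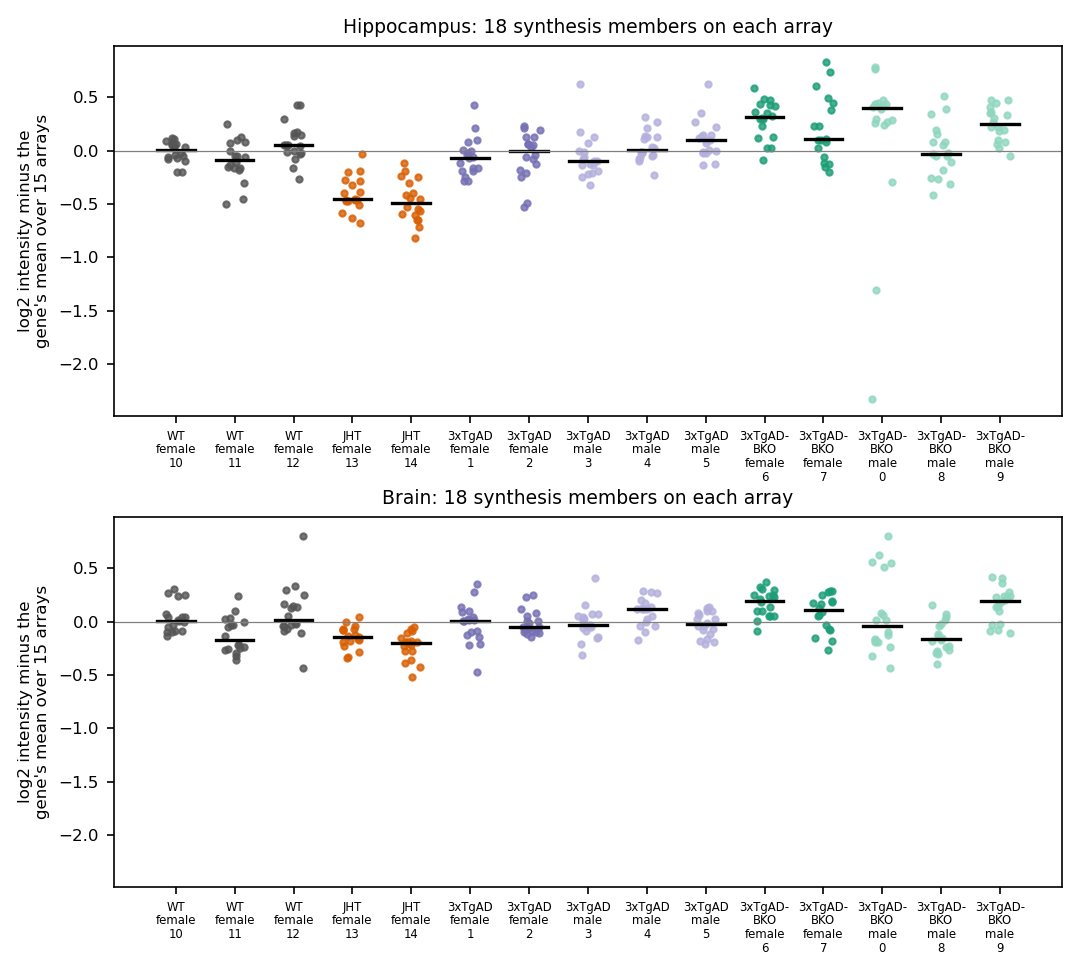
Each point is 1 of the 18 synthesis enzymes on 1 array, as log2 intensity minus that gene's mean over the 15 arrays of the tissue, and bars are medians. All points of both JHT hippocampi lie below 0, with medians of -0.46 and -0.49, and the 2 low points of hippocampal 3xTgAD-BKO male 0 are Acat2 and Hsd17b7.

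JHT females were compared with WT females to ask what the loss of B cells does without the AD transgenes. In the hippocampus, all 18 synthesis enzymes had a lower mean in JHT mice, and 9 of them had an unadjusted p under 0.05. Of all genes measured, 44.3% were higher in JHT mice and the median difference was -0.01. No member passed the test across all genes (0 of 30 by limma, 0.0926% of all genes called), although 11 of 30 members had an unadjusted p under 0.05, against 7.83% of all genes. The methods' unpaired test also called 0 after adjustment, and 16 without it, against 9.28% of all genes.

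The members with the lowest p were Msmo1, Cyp51 and Idi1. Msmo1, which starts the removal of the methyl groups at carbon 4 of lanosterol-derived sterols, read 13.43 and 13.25 in the JHT hippocampi and 13.95, 13.84 and 13.95 in the WT hippocampi. The groups did not overlap, and the difference was -0.58 (SE 0.11, limma adjusted p = 0.200). Cyp51, the lanosterol demethylase, read 7.97 and 7.70 in JHT against 8.33, 8.60 and 8.49 in WT, a difference of -0.64 (SE 0.12, adjusted p = 0.200). Idi1, which isomerizes the isoprene unit, read 11.77 and 11.53 against 12.21, 12.18 and 12.24, a difference of -0.56 (SE 0.11, adjusted p = 0.228). With 2 against 3 mice, the smallest two-sided p of an exact permutation test is 0.1, which each of these 3 genes reached.

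By step, the 7 acetyl-CoA and mevalonate enzymes had a median difference of -0.43, with 4 of 7 at an unadjusted p under 0.05, the 4 squalene and lanosterol enzymes one of -0.55 (3 of 4) and the 7 post-lanosterol enzymes one of -0.31 (2 of 7). Mvd, which decarboxylates mevalonate pyrophosphate, had the largest difference of the 18, -0.85 (SE 0.22). Tm7sf2 and Ebp, both post-lanosterol enzymes, were nearest to 0, at -0.02 (SE 0.18) and -0.09 (SE 0.16). Among the other members Cyp46a1 was at -0.59 (SE 0.15) and Abca1 at 0.38 (SE 0.14), and neither passed the test (limma adjusted p = 0.396 and 0.559). The 10 fatty acid synthesis genes, which respond to the related factor SREBP-1c, all had lower means in JHT hippocampi, with a median of -0.11, and 0 of 10 passed the test. Apoe, the main apolipoprotein of the brain and outside the 30, was at 0.09 (SE 0.16) and did not pass the test.

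Choroid plexus signal moved with this difference. The log2 summed signal of its 8 markers was 18.34 and 17.85 in the JHT hippocampi and 10.68, 12.47 and 12.59 in the WT hippocampi, and all 8 markers had an unadjusted p under 0.05. The groups did not overlap, so genotype and choroid plexus signal cannot be told apart between these 5 hippocampi. The neuron sum was 18.55 to 18.57 in JHT and 18.61 to 18.65 in WT hippocampi, and its part in the difference was not tested. With the choroid plexus signal as a covariate over the 15 hippocampal arrays, chosen after the data were seen, the median over the synthesis enzymes was -0.41, with 17 of 18 below 0. In the brain, where the sums ran from 16.02 to 17.47, all 18 synthesis enzymes again had a lower mean in JHT mice, with a median of -0.15. Of the JHT brains, replicate 13 had 1 and replicate 14 had 0 of 18 enzymes above the tissue mean. The neuron sum was 18.54 to 18.57 in JHT and 18.60 in each WT brain, and the highest astrocyte sum of the JHT brains (18.82 to 18.83) met the lowest of the WT brains (18.83 to 18.90) without overlap. The part of either was not tested.

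In that brain comparison 0 of 30 members passed limma's test (0.161% of all genes called), with 2 at an unadjusted p under 0.05 against 6.31% of all genes, and the methods' unpaired test called 0 after adjustment and 2 without it (5.76% of all genes). Fdps, which makes farnesyl pyrophosphate, read 13.28 and 13.22 in JHT brains and 13.65, 13.39 and 13.58 in WT brains, a difference of -0.29 (SE 0.12, limma adjusted p = 0.747). Srebf1 was at -0.30 (SE 0.14, adjusted p = 0.793) and Lss, which closes lanosterol, at -0.66 (SE 0.31, adjusted p = 0.819), or -0.39 without WT replicate 12. The values of the tissues are given side by side without a joint test, since they may come from the same animals.

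B-cell deficiency on the AD background was compared over both sexes. In the hippocampus Idi1 was 1.35-fold higher in 3xTgAD-BKO than in 3xTgAD mice and Abcg1, a sterol exporter, was 1.25-fold lower. These were the 2 of 30 members that passed the test (limma, 1.02% of all genes called), and 9 members had an unadjusted p under 0.05, against 10.5% of all genes and 13.5% of the 19498 genes well above background on all arrays. The median difference over the members was 0.19 and over all genes 0.01.

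Idi1 read 12.39 and 12.21 in females and 12.39, 12.44 and 12.46 in males of the 3xTgAD-BKO line. It read 11.81 and 12.06 in females and 11.78, 12.01 and 11.98 in males of the 3xTgAD line. All 5 3xTgAD-BKO values lay above all 5 3xTgAD values, with a difference of 0.44 (SE 0.08, limma adjusted p = 0.0335, exact two-sided permutation p = 0.00794, the smallest possible). Abcg1 read 12.45 and 12.40 in females and 12.68, 12.80 and 12.64 in males of the 3xTgAD-BKO line, against 13.05 and 12.98 and then 12.85, 12.65 and 12.81 in 3xTgAD mice. The genotypes overlapped among males and not among females, and the difference was -0.33 (SE 0.06, limma adjusted p = 0.0371, exact two-sided permutation p = 0.0317).

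Both calls were fragile. Each ended in 14 of 26 alternatives, with the direction kept in all 26, and 0 members were called with scaling to the 75th percentile, the deposited scores, unprocessed signal, a fit of only these groups, the methods' unpaired test after adjustment, or the summed signal of endothelial markers as a covariate. Replicate 0 is the only 3xTgAD-BKO male on the slide that holds the 3xTgAD hippocampi. With the slide as a fixed block, or within that slide, the males of that genotype thus counted through replicate 0 alone. Idi1 was at 0.42 and Abcg1 at -0.34 in both fits, and no test is given for them. Leaving out single mice gave 0 to 4 calls: 0 without 3xTgAD replicate 1, 3 or 5 or 3xTgAD-BKO replicate 6 or 9, 1 without 3xTgAD replicate 2 or 3xTgAD-BKO replicate 7, 2 without 3xTgAD replicate 4 or 3xTgAD-BKO replicate 0, and 4 without 3xTgAD-BKO replicate 8. Endothelial markers moved with the genotype, their sum being 15.86 to 16.72 in 3xTgAD-BKO and 15.50 to 15.85 in 3xTgAD hippocampi. Of the 10 markers, 9 were higher in 3xTgAD-BKO hippocampi, 1 of them past the threshold, with a median difference of 0.40, and with their covariate Idi1 was at 0.48 and Abcg1 at -0.31 (limma adjusted p = 0.393 and 0.523).

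Of the 18 synthesis enzymes, Idi1 included, 16 had a higher mean in 3xTgAD-BKO hippocampi, with a median difference of 0.23 and 7 at an unadjusted p under 0.05. Msmo1, whose 5 3xTgAD-BKO values (14.05 to 14.31) all lay above the 5 3xTgAD values (13.69 to 13.93), was at 0.36 (SE 0.08, limma adjusted p = 0.0694), Mvd at 0.54 (SE 0.15, adjusted p = 0.175; 1.05 in females and 0.03 in males) and Fdps at 0.34 (SE 0.11, adjusted p = 0.250). Acat2, the cytosolic thiolase of the first step, and Hsd17b7, a post-lanosterol reductase, were the exceptions at -0.54 (SE 0.39) and -0.10 (SE 0.30). The second probe of Hsd17b7 had the opposite sign, at 0.28 (SE 0.10). Replicate 0 was the lowest array for both, where Acat2 read 6.54 against 8.77 to 9.50 in the other transgenic hippocampi and Hsd17b7 read 8.0 against 9.25 to 9.79. The other 3xTgAD-BKO males, at 8.77 and 8.89 for Acat2, also lay below the 3xTgAD males (9.08 to 9.50). Among the remaining members Abca1 was at -0.25 (SE 0.10), Soat1 at 0.34 (SE 0.26) and Srebf2 at 0.27 (SE 0.16), none past the threshold (limma adjusted p = 0.371, 0.753 and 0.642). By sex, without a test of the difference here, Abca1 was at -0.59 in females and 0.09 in males, Soat1 at 0.04 and 0.65, and the called Abcg1 at -0.59 and -0.06.

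**Figure D2:**
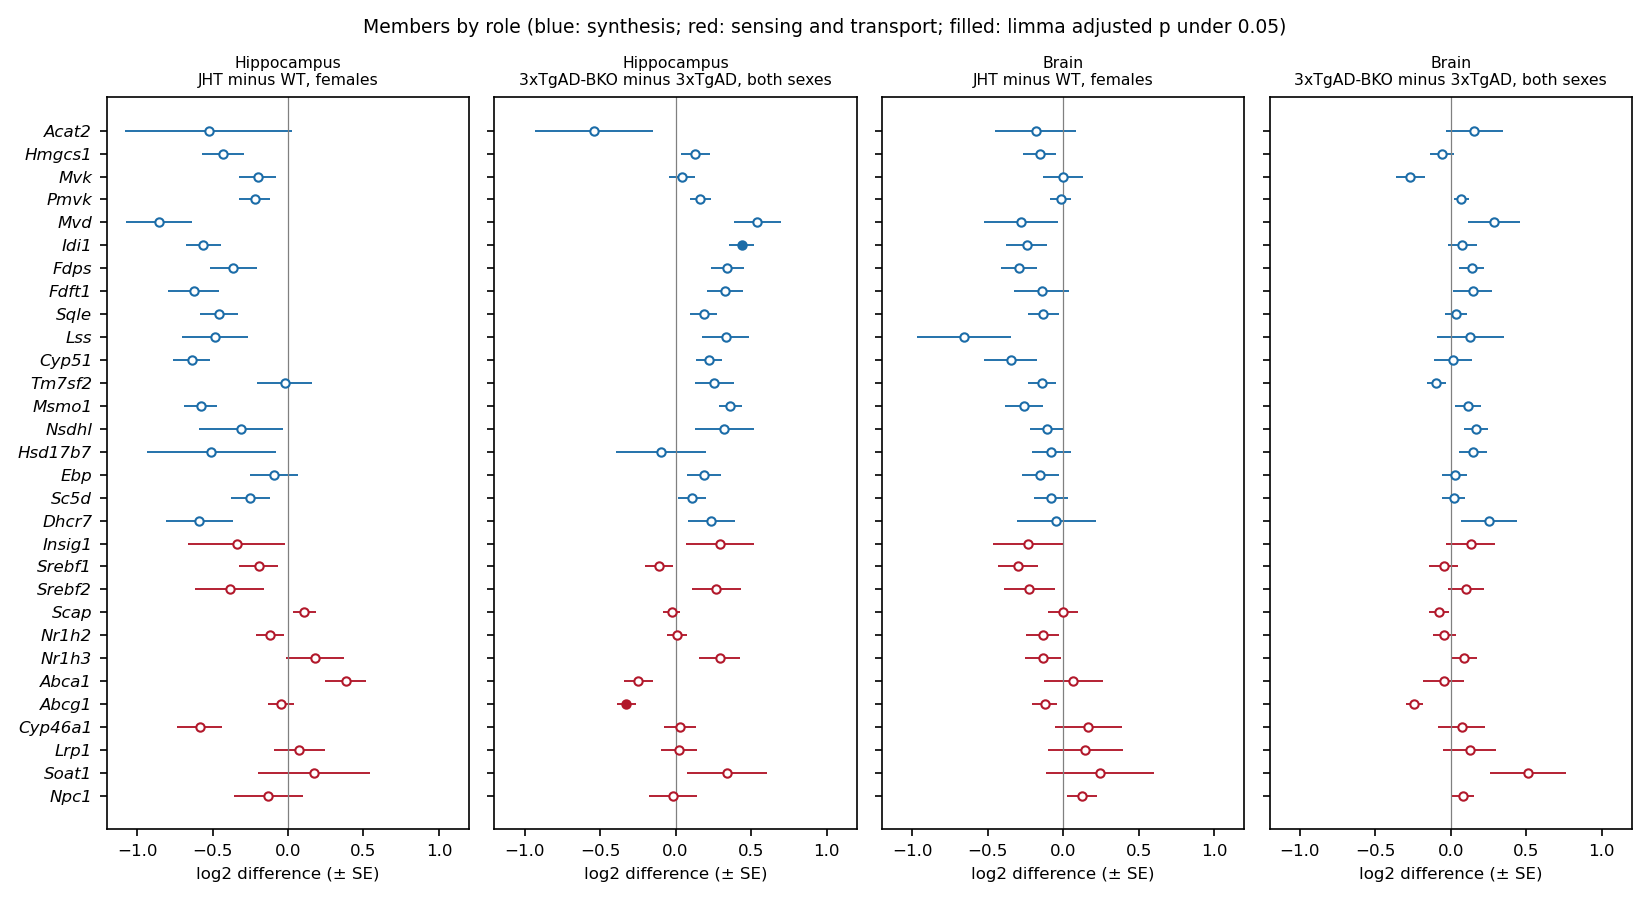
Log2 differences with standard errors for the 30 members in JHT against WT females and in 3xTgAD-BKO against 3xTgAD mice, in each tissue, ordered by role. Filled points passed limma's adjusted threshold and are Idi1 (0.44) and Abcg1 (-0.33) in the hippocampus, and the 18 synthesis enzymes (blue) lie at or below 0 in JHT hippocampi and brains.

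Of the further genes of sterol and fatty acid handling that were listed beside the 30 members, Apoe was at 0.10 (SE 0.12, limma adjusted p = 0.839) in this comparison.

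By sex, 1 of 30 members passed the test in hippocampi of females and 0 of 30 in those of males (limma, 0.370% and 0.847% of all genes called). The call was Abcg1 in females, at -0.59 (SE 0.10, adjusted p = 0.0357), with 2 mice a group and an exact permutation p that cannot go below 0.333, and it ended in 8 of 17 alternatives. Summed marker signals moved with it, and those of these females did not overlap: in 3xTgAD-BKO against 3xTgAD hippocampi the astrocyte sum was 18.28 to 18.43 against 18.48 to 18.55, the neuron sum 18.52 to 18.56 against 18.71 to 18.73, the hippocampal field sum 14.82 to 15.11 against 15.44 to 15.57 and the endothelial sum 15.86 to 15.93 against 15.50 to 15.62. Their part in the Abcg1 difference was not tested. In males 10 members had an unadjusted p under 0.05, against 18.2% of all genes and 25.9% of those well above background on all arrays, and the methods' unpaired test called 0 after adjustment and 6 without it (10.8% of all genes). Idi1 was at 0.51 (SE 0.10, adjusted p = 0.0535), Cyp46a1 at -0.53 (SE 0.13, adjusted p = 0.0893) and Msmo1 at 0.40 (SE 0.10, adjusted p = 0.0942). With the slide as a fixed block the 3xTgAD-BKO males counted through replicate 0 alone, which put Msmo1 at 0.51, and no test is given. The endothelial sum of these males was 16.02 to 16.72 in 3xTgAD-BKO and 15.58 to 15.85 in 3xTgAD hippocampi, and the choroid plexus sums, 11.25 to 13.40 and 13.40 to 18.53, met without overlap. Their part was not tested. Stard4, a sterol carrier among the further genes, passed in males at 0.77 (SE 0.15, limma adjusted p = 0.0480).

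The difference between the sexes was tested directly. No member passed (0 of 30 by limma, 0.0245% of all genes called), and 10 had an unadjusted p under 0.05 against 21.2% of all genes and 32.8% of those well above background on all arrays. The share of the members thus stood near that of genes of like signal. Cyp46a1 was higher in 3xTgAD-BKO females, at 10.04 and 10.31 against 9.66 and 9.51 in 3xTgAD females, and lower in males, at 9.60, 9.58 and 9.78 against 10.41, 9.96 and 10.20. Within each sex the genotypes did not overlap, and the difference of differences was 1.12 (SE 0.21, limma adjusted p = 0.0732). Dhcr7, the last reductase of the pathway, was at 1.33 (SE 0.31) and Abcg1 at -0.52 (SE 0.12), both with an adjusted p of 0.0732. With the slide as a fixed block Cyp46a1 was at 1.18, Dhcr7 at 1.46 and Abcg1 at -0.50. The 3xTgAD-BKO males then counted through replicate 0 alone, and no test is given.

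In the brain, 0 of 30 members passed the test for B-cell deficiency over both sexes (limma, 2.64% of all genes called), and 2 had an unadjusted p under 0.05 against 14.5% of all genes. The methods' unpaired test called 0 after adjustment and 2 without it (12.8% of all genes). Abcg1 came nearest. It read 12.80 and 12.76 in females and 12.69, 12.93 and 12.83 in males of the 3xTgAD-BKO line, and 13.09 and 13.03 and then 13.01, 13.10 and 12.95 in 3xTgAD mice. The groups did not overlap, with a difference of -0.24 (SE 0.06, limma adjusted p = 0.0608, exact two-sided permutation p = 0.00794, the smallest possible).

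Mvk, the mevalonate kinase, was at -0.27 (SE 0.10, limma adjusted p = 0.213) and Nsdhl, a post-lanosterol enzyme, at 0.17 (SE 0.08, adjusted p = 0.373). Their second probes were at -0.12 (SE 0.16) and -0.03 (SE 0.17). With the slide as a fixed block Mvk was at -0.37, and no test is given. In that fit the 3xTgAD-BKO males counted through replicate 8 alone, which shared a slide with the 3xTgAD brains. Of the further genes, Ggps1, which makes geranylgeranyl pyrophosphate, was lower in 3xTgAD-BKO brains at -0.50 (SE 0.10, limma adjusted p = 0.0291). Apoe was at 0.11 (SE 0.08) and did not pass.

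In females 0 of 30 members passed in the brain (limma, 1.12% of all genes called) with 3 at an unadjusted p under 0.05 against 12.9%, and the methods' unpaired test called 0 after adjustment and 7 without it (17.7% of all genes). Abcg1 was at -0.28 (SE 0.09), Fdps at 0.35 (SE 0.13) and Nsdhl at 0.30 (SE 0.12), or 0.20 without 3xTgAD-BKO replicate 6. Summed marker signals of these females did not overlap for endothelium (16.15 to 16.19 in 3xTgAD-BKO, 15.90 to 15.95 in 3xTgAD), microglia (15.81 to 15.96, 15.69 to 15.77), oligodendrocytes (18.24 to 18.37, 18.17 to 18.19) and astrocytes (18.75 to 18.78, 18.80 to 18.89), and their part in these values was not tested. In males 0 of 30 passed (limma, 0.961% called) with 4 at an unadjusted p under 0.05 against 11.5%, and the unpaired test called 0 and 2 (8.32% of all genes without adjustment). Soat1, which esterifies cholesterol for storage, was at 0.94 (SE 0.32), Abcg1 at -0.21 (SE 0.07) and Hmgcs1 at -0.27 (SE 0.10). In these male brains the sums did not overlap for endothelium (16.28 to 16.80 in 3xTgAD-BKO, 16.11 to 16.20 in 3xTgAD), microglia (15.73 to 16.09, 15.64 to 15.69) and neurons (18.52 to 18.62, 18.65 to 18.67), and their part was not tested. The difference between the sexes gave 0 of 30 (limma, 0.101% called) and 5 at an unadjusted p under 0.05 against 8.75% of all genes, with Lrp1 at -0.95 (SE 0.35), Hmgcs1 at 0.42 (SE 0.16) and Fdps at 0.43 (SE 0.17).

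**Figure D3:**
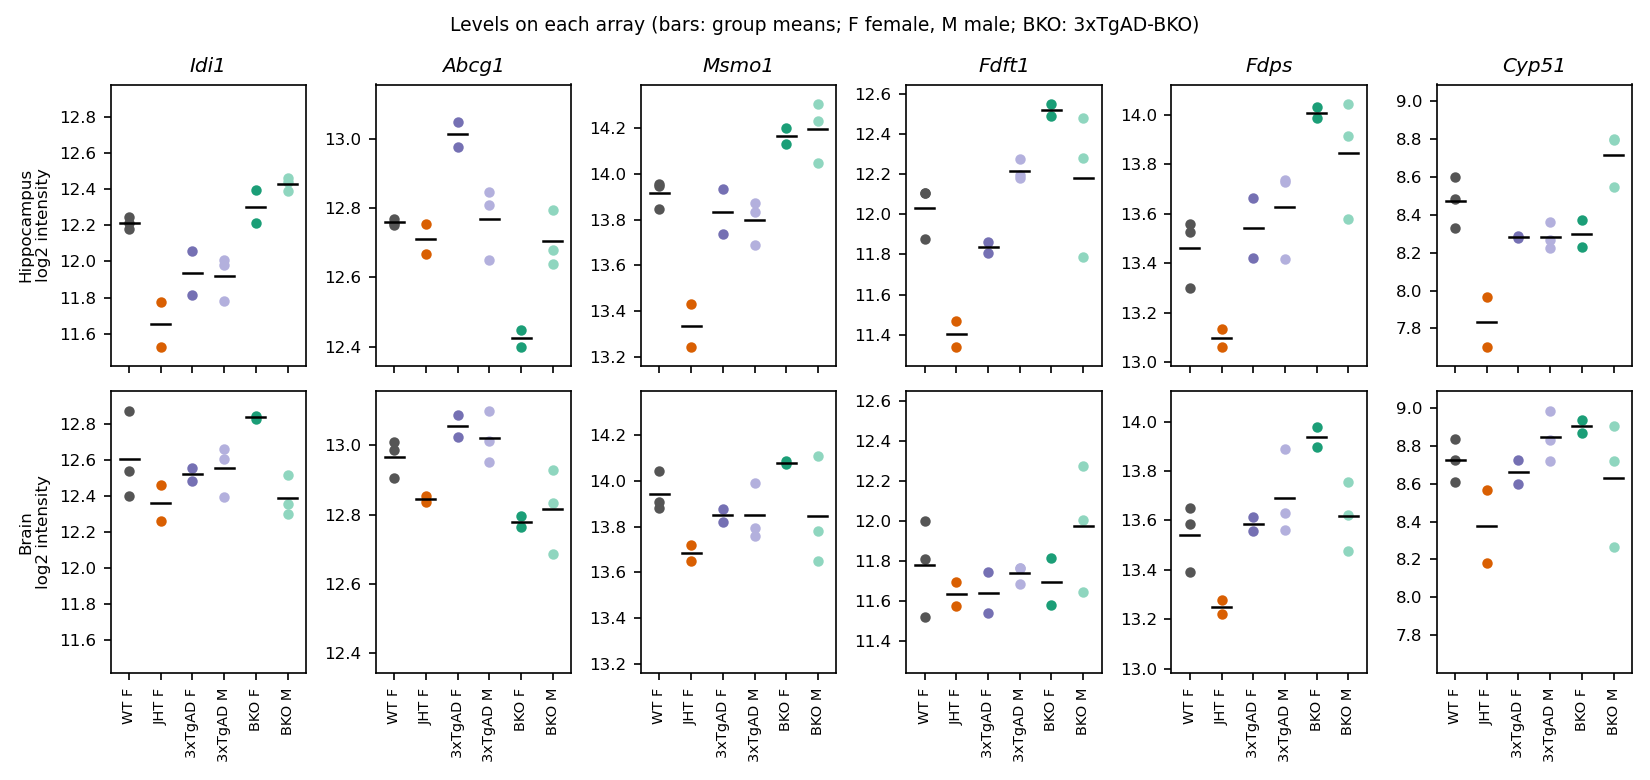
Log2 intensities of 6 members on every array, by genotype and sex, in hippocampus (top) and brain (bottom), with bars at group means and 1 scale for each gene. Hippocampal Idi1 of all 5 3xTgAD-BKO mice (12.21 to 12.46) lies above that of all 5 3xTgAD mice (11.78 to 12.06), and both JHT mice are lowest for Msmo1, Fdft1, Fdps and Cyp51 in the hippocampus.

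Whether B-cell deficiency differed between tissues was tested in a fit of all 30 arrays. No member passed (0 of 30 by limma, 0.0899% of all genes called), and 4 had an unadjusted p under 0.05 against 6.03% of all genes, all 4 of them synthesis enzymes with a larger value in the hippocampus. Idi1 was at 0.36 (SE 0.13), Mvk at 0.31 (SE 0.13) and Tm7sf2 at 0.35 (SE 0.15), with limma adjusted p of 0.585, 0.744 and 0.745. With a fixed block for slide Mvk was at 0.49 and Tm7sf2 at 0.57, and no test is given. In that fit the 3xTgAD-BKO males counted through replicate 0 in the hippocampus and replicate 8 in the brain. Over the alternatives other than the scores, Tm7sf2 ran from 0.19 to 0.57.

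In females, most synthesis enzymes had opposite signs in B-cell deficiency with and without the transgenes. For 3xTgAD-BKO minus 3xTgAD females 16 of 18 were above 0 in the hippocampus (median 0.24) and 14 of 18 in the brain (median 0.18), and for JHT minus WT females 0 of 18 in either tissue. In brains of males 8 of 18 were above 0, with a median of -0.04. The difference was also tested in females. In the hippocampus all 18 enzymes had a larger value for 3xTgAD-BKO minus 3xTgAD than for JHT minus WT, with a median difference of differences of 0.69, against -0.01 over all genes. As given above, choroid plexus and neuron sums did not overlap between JHT and WT hippocampi. Nor did neuron, astrocyte, hippocampal field and endothelial sums between hippocampi of 3xTgAD-BKO and 3xTgAD females. Their part in this value was not tested. No member passed (0 of 30 by limma, 0.131% of all genes called), and 15 had an unadjusted p under 0.05 against 13.5% of all genes and 19.3% of those well above background on all arrays. Mvd was at 1.90 (SE 0.32), Msmo1 at 0.91 (SE 0.16) and Idi1 at 0.93 (SE 0.17), with limma adjusted p of 0.0699, 0.0824 and 0.0824. In the brain 17 of 18 enzymes had the same sign, with a median of 0.30. There 0 of 30 members passed (limma, 0.379% called), with 6 at an unadjusted p under 0.05 against 8.51% of all genes, and Fdps was at 0.64 (SE 0.18), Idi1 at 0.56 (SE 0.20) and Msmo1 at 0.49 (SE 0.19).

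The transgenes were compared in females, over both B-cell genotypes and within each. Over both, hippocampal synthesis enzymes had a median difference of 0.32, with 17 of 18 higher in transgenic mice. No member passed (0 of 30 by limma, 0.528% of all genes called), 12 had an unadjusted p under 0.05 against 8.20% of all genes, and the methods' unpaired test called 0 after adjustment and 7 without it (8.51% of all genes). Sqle, the squalene epoxidase, read 13.01 to 13.36 in the 4 transgenic hippocampi and 12.43 to 13 in the 5 others, with a median of 12.92 in the latter. The groups did not overlap, and the difference was 0.43 (SE 0.09, limma adjusted p = 0.102). Msmo1 was at 0.37 (SE 0.08, adjusted p = 0.103) and Fdps at 0.50 (SE 0.12, adjusted p = 0.133). A block for slide took its step from the 3xTgAD-BKO males alone, replicate 0 against replicates 8 and 9. With it the synthesis median was 0.12 with 13 of 18 above 0. Sqle was then at 0.13, Msmo1 at 0.21 and Fdps at 0.20. Since 1 side of that step is the single array of replicate 0, no test is given. Rxra, the partner of the liver X receptors, was called among the further genes, at 1.27 (SE 0.12, limma adjusted p = 0.00121).

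Within B-cell genotypes these values parted. 3xTgAD against WT hippocampi gave 8 of 18 synthesis enzymes higher, a median of -0.05 and 0 of 30 members called (limma, 0.746% of all genes called), with 7 at an unadjusted p under 0.05 against 12% and 0 and 5 by the methods' unpaired test after and without adjustment (13.5% of all genes without it). Abca1, the exporter that lipidates APOE, read 10.86 and 10.72 in 3xTgAD and 10.22, 10.43 and 9.97 in WT females, a difference of 0.58 (SE 0.14, limma adjusted p = 0.0988). Abcg1 was at 0.25 (SE 0.09, adjusted p = 0.276) and Idi1 at -0.27 (SE 0.11, adjusted p = 0.380), or -0.15 without 3xTgAD replicate 1. Summed signals of 3xTgAD and WT hippocampi did not overlap for neurons (18.71 to 18.73 against 18.61 to 18.65), hippocampal field (15.44 to 15.57 against 15.18 to 15.36), oligodendrocytes (17.80 to 18.20 against 17.57 to 17.76), microglia (16.04 to 16.23 against 15.94 to 16.01), endothelium (15.50 to 15.62 against 15.78 to 16.12) and choroid plexus (14.23 to 14.66 against 10.68 to 12.59), and their part was not tested.

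3xTgAD-BKO against JHT hippocampi gave 17 of 18 synthesis enzymes higher and a median of 0.69, and 2 of 30 members passed (limma, 0.229% of all genes called) with 18 at an unadjusted p under 0.05, against 9.78% of all genes and 12.8% of those well above background on all arrays. Msmo1 read 14.20 and 14.13 in 3xTgAD-BKO and 13.43 and 13.25 in JHT females, 1.78-fold higher (difference 0.83, SE 0.12, adjusted p = 0.0230). Fdft1, the squalene synthase, read 12.49 and 12.55 against 11.47 and 11.34, 2.17-fold higher (difference 1.12, SE 0.19, adjusted p = 0.0480). The calls ended in 7 and 9 of 17 alternatives, Fdft1 in each of the 4 fits that left out a mouse and with the mean of its probes (0.66, adjusted p = 0.508), and the exact permutation p with 2 mice a group cannot go below 0.333. Neither was called with the slide as a fixed block, Msmo1 being at 0.66 and Fdft1 at 0.67. That block took its step from 3xTgAD-BKO male replicate 0 against replicates 8 and 9. Summed signals of 3xTgAD-BKO and JHT females did not overlap for astrocytes (18.28 to 18.43 against 18.48 to 18.56), hippocampal field (14.82 to 15.11 against 15.24 to 15.46) and endothelium (15.86 to 15.93 against 15.98 to 16.22), and their part in the calls was not tested. Rxra was called again, at 1.74 (SE 0.18, adjusted p = 0.00236).

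In the brain of females the transgene comparison called 0 of 30 members (limma, 1.24% of all genes called), with 7 at an unadjusted p under 0.05, all higher, against 12.3% of all genes, and the methods' unpaired test called 0 and 8 after and without adjustment (14.3% of all genes without it). Tm7sf2 read 12.13 to 12.31 in the 4 transgenic and 11.75 to 12.02 in the 5 other brains, a difference of 0.31 (SE 0.07, limma adjusted p = 0.0651). Fdps was at 0.36 (SE 0.09) and Hmgcs1, an early enzyme of the mevalonate steps, at 0.30 (SE 0.08), and with the slide as a fixed block these were at 0.65 (SE 0.19) and 0.50 (SE 0.19), not called. The second probe of Hmgcs1 was at -0.16 (SE 0.28). 3xTgAD against WT brains called 0 of 30 (limma, 1.15%), with 2 at an unadjusted p under 0.05 against 11% and 0 and 3 by the unpaired test (13% of all genes without adjustment), and Mvk was at 0.45 (SE 0.13), Tm7sf2 at 0.25 (SE 0.09) and Srebf1 at -0.21 (SE 0.14), or -0.11 without 3xTgAD replicate 1 and -0.32 without WT replicate 12. With the slide as a fixed block, the step between the slides of transgenic and other female brains came from 3xTgAD-BKO male replicate 9 against replicate 8 alone. That holds for the transgene comparison above as well. Mvk was then at 0.93 in 3xTgAD against WT brains, and no test is given. The endothelial sum was 15.90 to 15.95 in these 3xTgAD and 16.06 to 16.52 in WT brains, and its part was not tested.

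3xTgAD-BKO against JHT brains called 1 of 30 (limma, 0.667%). Fdps read 13.98 and 13.90 in 3xTgAD-BKO and 13.28 and 13.22 in JHT females, 1.61-fold higher (difference 0.69, SE 0.13, limma adjusted p = 0.0480). The call ended in 10 of 17 alternatives, among them each of the 4 that left out a mouse and the slide as a fixed block (0.97). The step of that block was 3xTgAD-BKO male replicate 9 against replicate 8. Summed signals of these 3xTgAD-BKO and JHT brains did not overlap for oligodendrocytes (18.24 to 18.37 against 18.05 to 18.18), microglia (15.81 to 15.96 against 15.67 to 15.75) and astrocytes (18.75 to 18.78 against 18.82 to 18.83), and their part in the call was not tested. All 18 synthesis enzymes had a higher mean there, with a median of 0.34. The 3xTgAD-BKO and JHT females lie on different slides in both tissues, which cannot be told apart from the transgenes.

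Sex was compared within the transgenic lines. In the hippocampus 0 of 30 members passed (limma, 0.0381% of all genes called), with 1 at an unadjusted p under 0.05 against 5.82% and 0 by the methods' unpaired test with or without adjustment (2.41% of all genes without it). Cyp51 was at -0.21 (SE 0.09) in females against males, Ebp at -0.17 (SE 0.11; -0.27 without 3xTgAD-BKO replicate 9) and Acat2 at 0.57 (SE 0.39). Without replicate 0 Acat2 was at 0.19 (SE 0.12, limma adjusted p = 0.814). With the slide as a fixed block the 3xTgAD-BKO males counted through replicate 0 alone, and Acat2 was at 1.33, for which no test is given. In the brain 0 of 30 passed (limma, 0.139%), with 2 at an unadjusted p under 0.05 against 9.38% and 0 and 3 by the unpaired test after and without adjustment (5.47% of all genes without it). Tm7sf2 was at 0.22 (SE 0.07), Hmgcs1 at 0.23 (SE 0.08) and Idi1 at 0.21 (SE 0.10). Over the alternatives other than the scores, Tm7sf2 ran from 0.11 to 0.26.

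In the reported fits, which leave the slide out, tissue gave the largest number of calls. Of the 30 members 21 differed between hippocampus and brain (limma, 51.1% of all genes called), 11 higher and 10 lower in the hippocampus. Among the 19498 genes well above background on all arrays, 71.3% were called, so the share of the members, 21 of 30, stood near that of genes of like signal. Scaling to the 75th percentile, which moved the median of all genes by 0.28, called 22, a count given without the share of all genes under that scaling. Of the 15 brain arrays, 1 shares a slide with hippocampal arrays, so tissue and slide can hardly be told apart, and with the slide as a block 5 members were called (18% of all genes called), 4 of them among the 21, with Lrp1 (-0.018) and Dhcr7 (-0.25) then turned in sign. Of the other members given by array, Srebf2 was then at 0.15 (SE 0.31) and Idi1 at -0.32 (SE 0.20), neither called, Soat1 at 1.45 (SE 0.56), not called, and Acat2 at 1.61 (SE 0.36), called.

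**Figure D4:**
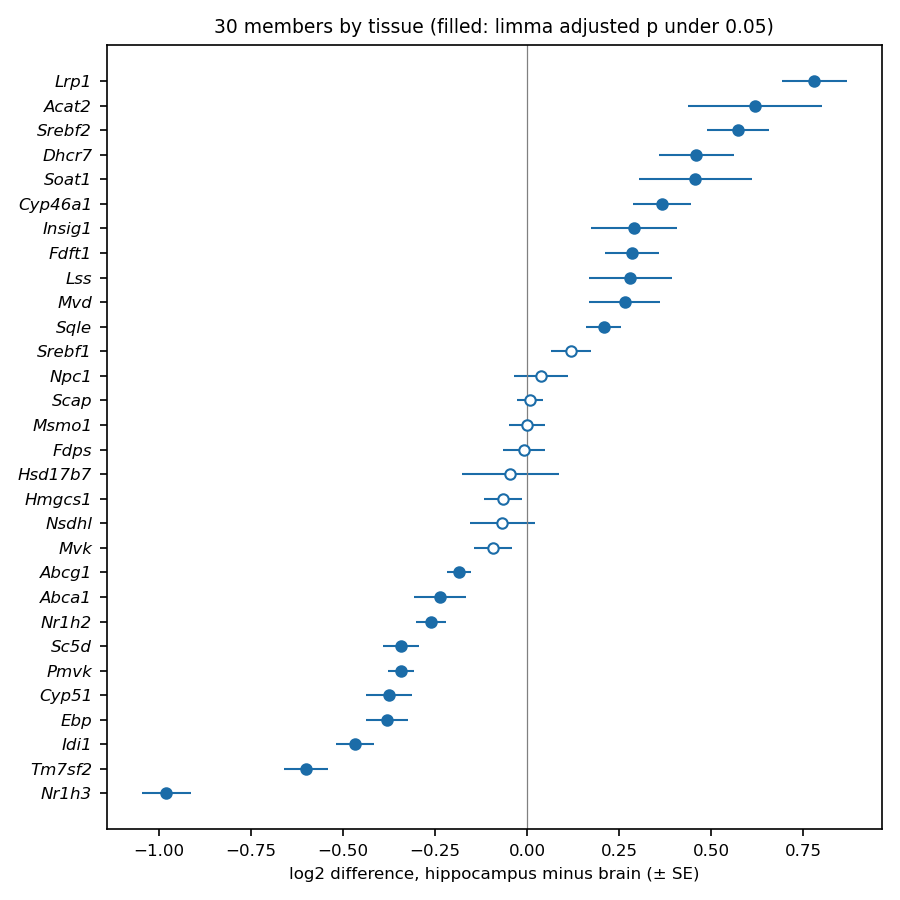
Log2 difference between hippocampus and brain with its standard error for each of the 30 members, averaged over the 6 groups of genotype and sex. Differences run from -0.98 (Nr1h3) to 0.78 (Lrp1), and filled points are the 21 members past limma's adjusted threshold.

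Nr1h3, the liver X receptor alpha, had the largest difference of the 30 members. It was 1.97-fold lower in the hippocampus, at 8.86 to 9.92 (median 9.32) against 10.15 to 10.62 (median 10.31) in the brain, and no hippocampal array reached a brain array (difference -0.98, SE 0.07, limma adjusted p = 1.19e-10). Srebf2 was higher, at 9.06 to 10.12 (median 9.51) against 8.64 to 9.24 (median 8.96), a difference of 0.57 (SE 0.08, adjusted p = 6.79e-06). Its ranges overlapped. Nr1h2, the beta receptor, was lower by a smaller step (means 13.01 and 13.27), Insig1 was higher (8.43 and 8.14), and Srebf1 (8.35 and 8.23) and Scap (14.12 and 14.11) did not pass the test.

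Among transport genes, Lrp1, an endocytic receptor for APOE particles, was 1.72-fold higher in the hippocampus, at 12.15 to 13.08 (median 12.59) against 11.30 to 12.79 (median 11.83), a difference of 0.78 (SE 0.09, limma adjusted p = 2.35e-07). Soat1 was higher, at 5.86 to 7.10 (median 6.42) against 5.16 to 6.99 (median 5.97), a difference of 0.46 (SE 0.15, adjusted p = 0.0165), with ranges that overlapped widely. Cyp46a1 was also higher (means 9.81 and 9.45). The exporters Abca1 (10.47 and 10.70) and Abcg1 (12.73 and 12.92) were lower, and Npc1, which moves cholesterol out of lysosomes, did not pass (9.59 and 9.56).

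The early steps split. Acat2 was higher in the hippocampus, at 6.54 to 9.50 (median 9.06) against 7.83 to 8.86 (median 8.22), a difference of 0.62 (SE 0.18, limma adjusted p = 0.00697), the lowest value being that of replicate 0. Idi1 was lower, at 11.53 to 12.46 (median 12.18) against 12.26 to 12.87 (median 12.51), a difference of -0.47 (SE 0.05, adjusted p = 1.67e-07). Pmvk, the phosphomevalonate kinase, was lower too (means 13.74 and 14.08) and Mvd higher (9.95 and 9.69), while Hmgcs1 (14.60 and 14.67), Mvk (12.78 and 12.87) and Fdps (13.60 and 13.60) did not pass.

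At the squalene steps Fdft1 (means 12.03 and 11.75), Sqle (13.01 and 12.81) and Lss (7.51 and 7.23) were higher in the hippocampus and Cyp51 (8.32 and 8.69) was lower. After lanosterol, Tm7sf2, a sterol reductase, was lower at 11.18 to 12.22 (median 11.39) against 11.75 to 12.31 (median 12), a difference of -0.60 (SE 0.06, limma adjusted p = 4.01e-08), and Dhcr7 was higher at 8.87 to 10.33 (median 9.53) against 8.68 to 9.84 (median 8.97), a difference of 0.46 (SE 0.10, adjusted p = 0.000631). Ebp, a sterol isomerase (12.82 and 13.20), and Sc5d, a desaturase (11.82 and 12.16), were lower. Msmo1 (13.87 and 13.88), Nsdhl (9.55 and 9.62) and Hsd17b7 (9.30 and 9.35) did not pass, although the second probe of Hsd17b7 had a difference of 0.30 (SE 0.05).

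Of the 45 further genes, 9 were higher and 18 lower in the hippocampus, 60% called in all against 51.1% of all genes and 71.3% of those well above background on all arrays. Cyp27a1, a sterol hydroxylase, was lower in the hippocampus, but only 23 of 30 arrays had it well above background, so the size of its difference is not exact and is not given. Cyp39a1, which acts on the CYP46A1 product, was at -1.0 (SE 0.09) and Cyp7b1 at 0.99 (SE 0.14), both past the threshold, and Apoe at -0.02 (SE 0.06, limma adjusted p = 0.788) was not. Summed marker signals moved with tissue. The astrocyte sum was 18.18 to 18.66 in hippocampi and 18.72 to 18.90 in brains, without overlap, and the oligodendrocyte sum was 17.15 to 18.20 and 18.03 to 18.37, with overlap. The microglial sum had medians of 16.01 and 15.73 and the endothelial sum of 15.86 and 16.15, both with overlap. The choroid plexus sum had medians of 13.40 and 16.88 and the sum of blood markers of 16.33 and 16.90, both with overlap. The part of all these signals in the tissue differences was not tested.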

How the data were processed

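One array was hybridized for each of 15 hippocampal and 15 brain samples, and its intensities were deposited by the authors as Feature Extraction 12.0.3.1 output (1-colour Cy3, background-subtracted and detrended spot signal). A second deposited file holds scores, which a comparison with the scanner values showed to be Z scores of log10 signal within each array, and these served as an alternative. After 3671 of 62976 spots were left out as controls, replicate spots were averaged, log2 values were quantile-normalized over 30 arrays, and each of 36717 genes and transcripts was represented by its brightest probe on average. No probe was saturated, and the number of arrays limits the precision. Symbols came from probe accessions, and 28331 of 55681 probes matched one. Promoters came from RefSeq (GRCm38.p6).

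limma 3.58.1 (R 4.3.3, statmod 1.5.0, data.table version 1.17.8) was fitted per tissue over 6 groups of genotype and sex, or over 12 groups for comparisons across tissues, with Benjamini-Hochberg adjustment over all 36717 and a threshold of 0.05. The fits were tested on simulated data. Exact permutation tests were two-sided. A mean difference of 1 comparison averages the sexes or B-cell genotypes equally. Members and lists were chosen with earlier results of these data known. Members past the threshold were given by array (for tissue, the 8 with the largest change), otherwise the 3 with the lowest p, and of 45 further pathway genes those past it, with Apoe. Some items of that list are not reported here.

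Alternatives were the 75th-percentile scaling, normalization within a tissue, the scores, unprocessed signal with normexp (offset 50), removal of dim probes, averaging over the probes of a gene, slide and sample number as blocks, other sets of arrays, a threshold of 0.1, the methods' unpaired test, and leaving out each sample number. Analyses within a slide and with choroid plexus or endothelial signal as a covariate were chosen after the data were seen.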

Additional observations from a re-analysis of the deposited data

Results flagged for a closer look

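In 7 of 120 sets of 5 arrays (a member, a tissue and 1 transgenic genotype), 1 array lay far from the other 4, with a gap to its neighbour above 0.71 of the whole range. Chance gives about 1 such set in 20. Hippocampal 3xTgAD-BKO replicate 0 was low for Acat2 (6.54, next 8.77, ratio 0.759), replicate 8 was low for Fdps (13.58, next 13.91, ratio 0.719) and Npc1 (9.02, next 9.68, ratio 0.800), and replicate 6 was low for Srebf1 (8.01, next 8.30, ratio 0.724). In the brain, 3xTgAD-BKO replicate 0 was low for Abca1 (10.32, next 10.73, ratio 0.712) and high for Cyp46a1 (10.23, next 9.47, ratio 0.752), and 3xTgAD replicate 4 was high for Fdps (13.89, next 13.63, ratio 0.776).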

How the results depend on the processing

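Counts are members called of 30, and the cause of each change was not tested. The share of all genes called is not given for most settings, and counts without it are not read as results about the members. With 75th-percentile scaling, counts were 0 for hippocampal 3xTgAD-BKO against JHT, 0 for hippocampal B-cell deficiency over both sexes and in females, 2 in males, and 0 for brain 3xTgAD-BKO against JHT. With the deposited scores, hippocampal B-cell deficiency over both sexes and in females and brain 3xTgAD-BKO against JHT gave 0. Normexp gave 1 for hippocampal 3xTgAD-BKO against JHT, 0 for hippocampal B-cell deficiency over both sexes and in females, and 1 for the brain transgene comparison. Normalization within each tissue gave 0 for brain 3xTgAD-BKO against JHT, and the mean of a gene's probes gave 1 for hippocampal 3xTgAD-BKO against JHT. The filter on dim probes gave 1 each for hippocampal B-cell deficiency in males, brain transgene and brain B-cell deficiency over both sexes. A fit of only the groups compared gave 1 for the hippocampal transgene comparison and 0 for hippocampal 3xTgAD-BKO against JHT, hippocampal B-cell deficiency over both sexes and in females, and brain 3xTgAD-BKO against JHT. One fit of all 30 arrays, without or with the sample number as a random replicate block, gave 3 for hippocampal transgene, 7 for hippocampal 3xTgAD-BKO against JHT, 2 and 3 for hippocampal B-cell deficiency in females and males, 1 for hippocampal JHT against WT and 1 for brain B-cell deficiency over both sexes. Paired by the number that the titles share between tissues, tissue gave 20 with that block. The titles do not say that a number marks 1 mouse. Over 19498 genes, deviations from group means correlated at a median of 0.10 (-0.18 to 0.24) between samples of 1 number, above 0.1 in 8 of 15 pairs, and at -0.04 between other samples of a group, so the pairing was not established. The slide as a fixed block gave, with the share of all genes called in parentheses, in the hippocampus 3 for transgene (9.29%), 3 for 3xTgAD against WT (8.88%), 10 for B-cell deficiency over both sexes (11.3%), 6 in males (15.4%) and 2 for sex (8.02%). In the brain it gave 2 for transgene (2.56%), 1 for 3xTgAD against WT (3.08%), 2 for 3xTgAD-BKO against JHT (1.95%) and 1 for B-cell deficiency over both sexes (6.05%), and it gave 5 for tissue (18%) and 5 for B-cell deficiency between tissues (6.79%). With that block the tissue differences of Lrp1 (-0.018) and Dhcr7 (-0.25) turned in sign. The methods' unpaired test gave 0 after adjustment for the 4 genotype comparisons with calls. Without adjustment it gave, in the hippocampus, 7 for transgene, 5 for 3xTgAD against WT, 15 for 3xTgAD-BKO against JHT, 5, 8 and 6 for B-cell deficiency over both sexes, in females and in males, and 16 for JHT against WT. In the brain these were 8, 3, 8, then 2, 7 and 2, then 2, and 3 for sex. The share of all genes past that unadjusted test ran from 2.41% to 17.7% over the comparisons within a tissue. A threshold of 0.1 gave 1 for hippocampal 3xTgAD against WT, 5 for 3xTgAD-BKO against JHT, 4 for B-cell deficiency in males, 2 for brain transgene and 1 for brain B-cell deficiency over both sexes, and 5 each for hippocampal females minus males and transgenic minus non-transgenic females. These last comparisons, at 0 in the report, also gave calls under other settings. Females minus males gave 3 with the filter on dim probes and 3 in one fit of all 30 arrays without or with the replicate block. Transgenic minus non-transgenic gave 1 with normexp, 1 with the slide as a fixed block, 1 in a fit of only the groups compared, 7 in one fit of all 30 arrays and 8 with the replicate block. Of the analyses chosen after the data were seen, hippocampal B-cell deficiency over both sexes gave 1 with the choroid plexus covariate and 0 with the endothelial one. Leaving out each sample number gave 18 to 21 for tissue, and in the hippocampus 0 to 1 for 3xTgAD-BKO against JHT, 0 to 4 for B-cell deficiency over both sexes, 0 to 1 in females and 0 to 1 in males, 0 to 4 for females minus males (4 without 3xTgAD-BKO replicate 9, 2 without replicate 6), 0 to 2 for transgenic minus non-transgenic (2 without 3xTgAD-BKO replicate 6, 1 without JHT replicate 13), in the brain 0 to 1 for B-cell deficiency over both sexes, and 0 to 0 elsewhere. The next tally covers values of single genes and the counts of females minus males and transgenic minus non-transgenic in each tissue. It includes the unadjusted test and the threshold of 0.1. Of these, 1271 kept direction and side of the threshold or, for a count, stayed at 0, while 104 gained calls, 65 lost a call and 2 turned in sign.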
